A study of Mus musculus with 6 samples.

Results

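The genes studied here encode receptors for neurotransmitters, namely the serotonin (Htr), dopamine (Drd), adrenergic (Adra, Adrb), muscarinic and nicotinic acetylcholine (Chrm, Chrn), GABA-A (Gabr) and glutamate (Gria, Grik, Grin, Grm) receptors. They were chosen by gene symbol in the annotation of the Dnmt1-KO scanner files, where each of these stems had to be followed by a digit or, for Gabr, Chrn and Grin, by a subunit letter and a digit. Symbols of other proteins that match, Drd1ip, Grinl1a and Grina, were left out. The rule found 75 of 16908 annotated genes, and 73 of them had a promoter window among 16210 promoters in all. Chrm5, with 5 probes, and Grin2b, whose probes lie at least 124292 bp from the annotated start, had no window.

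In mouse embryonic stem (ES) cells, Rybp binding was measured by ChIP-chip, chromatin immunoprecipitation read out on promoter arrays. The cells were Dnmt1 constitutive knockout (Dnmt1-KO), Eed constitutive knockout (Eed-KO) and wild type (WT). Promoters are split over 2 array designs, so there were 6 arrays, and each promoter was read by 1 array per genotype with no replicate. No p-value was computed, and no culture-to-culture spread is known. All cells were grown in serum with leukaemia inhibitory factor, on irradiated embryonic fibroblasts or on gelatin, and which culture had feeders is not stated in the labels. The labels do not say how many clones stand behind each knockout. A control immunoprecipitation without the antibody, or in cells without Rybp, was not analysed here.

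Rybp belongs to the variant forms of Polycomb repressive complex 1 (PRC1), which ubiquitylates histone H2A. Eed is a core subunit of PRC2, which methylates lysine 27 of histone H3, a mark that canonical PRC1 reads, whereas the Rybp-containing complexes can reach chromatin without it. Dnmt1 copies DNA methylation onto the new strand at CpG dinucleotides when DNA is replicated. Many genes of neuronal function are silent in ES cells, and those with CpG-rich promoters are known as frequent Polycomb targets. Neurotransmitter receptors come in 2 kinds, G protein-coupled receptors, which signal through second messengers, and ligand-gated channels built from several subunits.

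The level of a promoter is log2 of immunoprecipitated over input signal, centred on the array median and averaged over a window of 6 neighbouring probes. The window is the run spanning at most 3 kb, within 10 kb of the annotated start, with the highest mean over the 3 genotypes. A level of 1, that is 2-fold, or more was called bound. The SD and SE given are over the 6 probes and cover probe scatter only. The Dnmt1-KO arrays came from another scanner model and software version than the Eed-KO and WT arrays. Their probe log ratios had SDs of 0.957 and 0.912, against 0.449 and 0.468 on the Eed-KO arrays and 0.413 and 0.417 on the WT arrays. Genotype and scan cannot be told apart for Dnmt1-KO. Differences are therefore also given with the arrays of a design set to 1 spread, their mean median absolute deviation, in the same windows unless windows chosen anew on the rescaled values are named. The promoter levels of the targeted genes do not check the genotypes, since a deletion need not touch the promoter probes. Eed had 1.89 in Dnmt1-KO, 0.37 in Eed-KO and 0.52 in WT cells, and Dnmt1 had 0.91, -0.05 and 0.03 in the same order.

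The median receptor level was above the median of all promoters in each genotype, without a test of that difference. It was 1.17 in Dnmt1-KO, 0.61 in Eed-KO and 0.58 in WT cells, against 0.92, 0.21 and 0.27 over all promoters. In Dnmt1-KO cells 41 of the 73 receptor promoters were bound, where 46% of all promoters were. In Eed-KO cells 17 were bound (5.77% of all promoters), and in WT cells 9 were (5.17% of all promoters). All 9 promoters bound in WT cells were bound in Dnmt1-KO cells, as were 97% of all WT-bound promoters, and 8 of them were bound in Eed-KO cells, as were 76.6% of all WT-bound promoters. The 9 WT levels ran from 1.02 at Gabra5 to 1.35 at Htr5b, and 6 further promoters lay between 0.95 and 0.97, which is within the probe scatter of the threshold. The WT count was 3 with the 6 probes nearest the start, 5 with the trend on probe GC removed, and 19 with runs of 4 probes. The shares of all promoters under these settings were not computed. With arrays at 1 spread 25, 32 and 28 receptor promoters were bound in Dnmt1-KO, Eed-KO and WT cells, where 21.7%, 11.6% and 14.8% of all promoters were. In windows chosen anew on the rescaled values the counts were 23, 36 and 31, and the shares of all promoters 19.9%, 12.3% and 15.6%. Potassium channel genes, another group of neuronal membrane proteins, stood at 45, 14 and 12 of 71 promoters bound in Dnmt1-KO, Eed-KO and WT cells. Olfactory receptor genes, which are G protein-coupled receptors of CpG-poor gene clusters, stood at 8, 1 and 0 of 780.

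**Figure D1:**
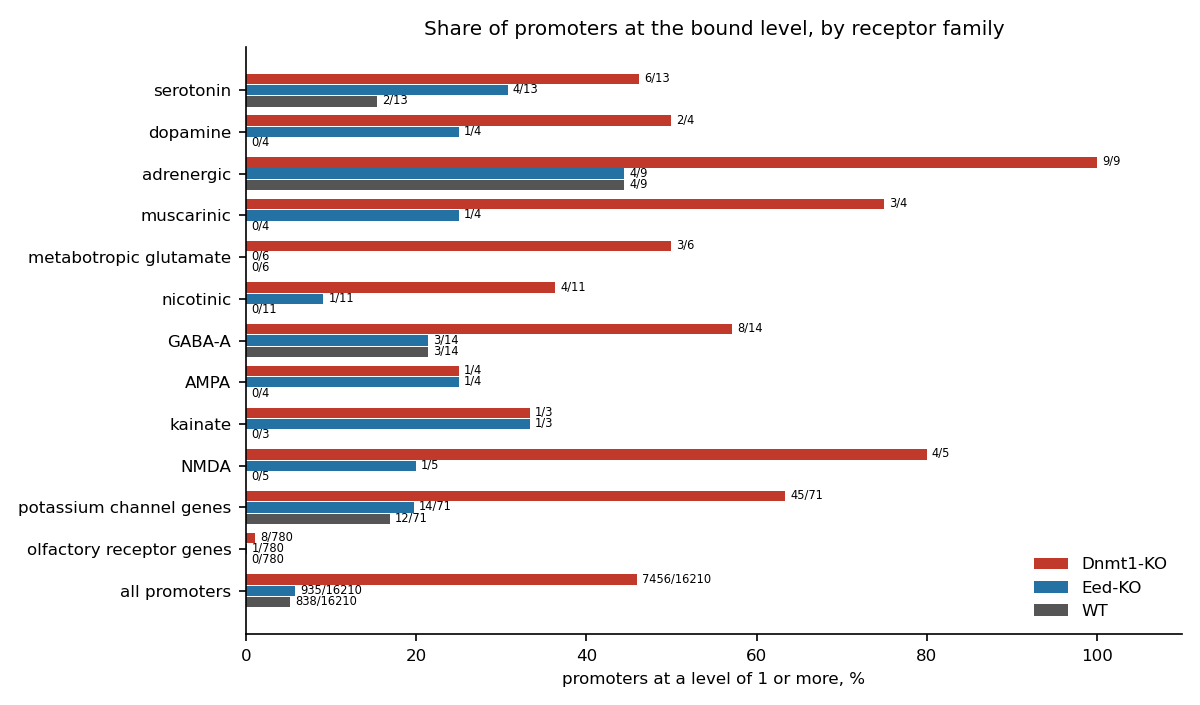
Share of promoters with a Rybp level of 1 or more (x axis, %) in each receptor family, in the potassium channel and olfactory receptor genes and among all promoters (y axis), with counts beside the bars. Red bars are Dnmt1-KO, blue Eed-KO and grey WT, each from 1 array per promoter; the adrenergic receptors have the longest WT bar, with 4 of 9.

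Before the families are taken in turn, the sequences below show the range of promoters in this gene group. They run from 250 bases before to 50 after an annotated start (RefSeq, GRCm38.p6), on the strand of the gene, with every CpG in capitals. Adra2a and Gabra4 were bound in WT cells, Htr6 had the highest level in Dnmt1-KO cells and Gabra6 the lowest level in WT cells. These levels are those of the windows, which have 0 probes in the Adra2a, Gabra4 and Gabra6 stretches and 1 in the Htr6 stretch. In the 6 probes nearest the start the WT levels were 0.43 at Adra2a, 0.70 at Gabra4 and -0.07 at Gabra6. Of the 73 genes, 54 matched this sequence table, with 66 starts. The Adra2a stretch is chr19:54045009-54045308 on the plus strand, the Gabra4 stretch chr5:71658259-71658558, the Gabra6 stretch chr11:42321023-42321322 and the Htr6 stretch chr4:139074740-139075039, the last 3 on the minus strand. They hold 28, 12, 2 and 10 CpGs in the order Adra2a, Gabra4, Gabra6 and Htr6. Another start of Htr6, not shown, holds 29.
Adra2a: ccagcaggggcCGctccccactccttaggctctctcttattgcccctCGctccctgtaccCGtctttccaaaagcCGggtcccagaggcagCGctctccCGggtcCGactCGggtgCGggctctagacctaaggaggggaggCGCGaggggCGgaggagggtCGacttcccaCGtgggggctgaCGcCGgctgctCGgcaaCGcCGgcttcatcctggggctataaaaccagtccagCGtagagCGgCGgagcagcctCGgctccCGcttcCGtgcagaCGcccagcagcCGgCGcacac
Gabra4: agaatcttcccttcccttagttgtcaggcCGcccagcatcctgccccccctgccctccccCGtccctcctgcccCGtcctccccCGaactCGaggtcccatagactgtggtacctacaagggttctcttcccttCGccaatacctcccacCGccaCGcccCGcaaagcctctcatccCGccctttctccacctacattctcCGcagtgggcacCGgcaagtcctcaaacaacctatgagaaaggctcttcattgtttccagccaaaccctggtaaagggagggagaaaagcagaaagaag
Gabra6: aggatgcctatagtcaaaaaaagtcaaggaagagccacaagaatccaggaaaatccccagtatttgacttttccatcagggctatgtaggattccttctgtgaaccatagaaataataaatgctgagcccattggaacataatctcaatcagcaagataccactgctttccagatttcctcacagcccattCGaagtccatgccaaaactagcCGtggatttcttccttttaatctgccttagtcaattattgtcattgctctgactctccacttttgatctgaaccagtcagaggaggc
Htr6: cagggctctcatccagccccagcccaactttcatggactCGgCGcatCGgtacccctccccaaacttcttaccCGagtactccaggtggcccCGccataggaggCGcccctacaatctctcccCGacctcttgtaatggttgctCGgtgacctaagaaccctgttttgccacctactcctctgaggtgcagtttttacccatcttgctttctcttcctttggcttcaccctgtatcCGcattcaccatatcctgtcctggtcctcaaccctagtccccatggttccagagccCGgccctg

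The adrenergic receptors, which bind adrenaline and noradrenaline, had the highest family level. Their 9 promoters had a median of 2.17 in Dnmt1-KO, 0.98 in Eed-KO and 0.95 in WT cells, and 9, 4 and 4 of them were bound. Of all promoters 46%, 5.77% and 5.17% were bound in the same order. Adra2a encodes an inhibitory alpha-2 receptor that also acts as an autoreceptor on noradrenergic neurons. It had 2.99 ± 0.73 in Dnmt1-KO, 1.61 ± 0.96 in Eed-KO and 1.24 ± 0.67 in WT cells (SD, 6 probes). The window of 1224 bp was centred 1770 bp downstream. The 6 probes nearest the start averaged 2.16 in Dnmt1-KO, 0.52 in Eed-KO and 0.43 in WT cells, so the start itself was at the bound level in Dnmt1-KO cells only. In all, 18 of its 36 probes in Dnmt1-KO, 5 in Eed-KO and 5 in WT cells were at 1 or more, on arrays of unlike spread. Adra2c, the other alpha-2 gene bound in all 3 genotypes, had 2.17, 1.39 and 1.15 in Dnmt1-KO, Eed-KO and WT cells, again downstream of the start, at 1918 bp. Adrb1, the main beta receptor of the heart, had 3.17, 1.18 and 1.04. Adrb3, the beta receptor of fat, had 2.81, 1.09 and 0.95. Adra1b, an alpha-1 receptor, was the lowest of the family in WT cells, with 1.1, 0.78 and 0.50.

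Serotonin receptor promoters ranged more widely, from -0.19 to 1.35 in WT cells. Htr5b, which encodes a G protein-coupled serotonin receptor, had the highest WT level of all 73 promoters. Its level was 2.67 ± 1.05 in Dnmt1-KO, 1.47 ± 0.82 in Eed-KO and 1.35 ± 0.60 in WT cells (SD, 6 probes), in a window centred 750 bp downstream of the start. Probe by probe, from 375 to 1147 bp, the Eed-KO levels were 0.70, 2.35, 2.05, 0.24, 1.65 and 1.82, and the WT levels 0.63, 2.03, 1.83, 0.63, 1.53 and 1.47. The same 4 probes were above 1 in both genotypes. Htr1b, an inhibitory autoreceptor on serotonergic terminals, was the other serotonin receptor bound in WT cells, with 2.26, 1.05 and 1.03 in Dnmt1-KO, Eed-KO and WT cells. Htr7, a stimulatory receptor, lay just below the threshold in WT cells, with 0.92, 1.05 and 0.97. Htr2b, which couples to phospholipase C and is best known from heart valves and gut, had the lowest WT level, with 0.08, -0.31 and -0.19. The 2 channel subunits of this family, Htr3a and Htr3b, which are neighbours on chromosome 9, had 0.12 and -0.01 in WT cells.

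GABA-A receptors are chloride channels of several subunits, and their subunit genes lie in clusters. Of 14 promoters, 8 were bound in Dnmt1-KO, 3 in Eed-KO and 3 in WT cells, where 46%, 5.77% and 5.17% of all promoters were. The alpha subunit gene Gabra4 had 2.74 in Dnmt1-KO, 1.1 in Eed-KO and 1.25 in WT cells, and Gabra5, an alpha subunit abundant in the hippocampus, had 2.82, 1.1 and 1.02. Within a cluster the levels differed from gene to gene. On chromosome 11 the WT levels were 0.62 at Gabrb2 and -0.29 at Gabra6. Gabra6, a subunit of cerebellar granule cells, had the lowest WT level of all 73 promoters in these windows, with -0.17 in Dnmt1-KO and 0.05 in Eed-KO cells. On the Dnmt1-KO array 3 of its 6 window probes had input, and 4 had immunoprecipitated signal, not well above background. In windows chosen on Eed-KO and WT its WT level was -0.07, and Htr2b was lower with -0.13. On chromosome 5 the WT levels were 0.28 at Gabrg1, 0.95 at Gabra2, 1.25 at Gabra4 and 0.58 at Gabrb1, and on chromosome 7 they were 1.02 at Gabra5 and 0.44 at Gabrg3.

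No promoter of the remaining families was bound in WT cells, where 5.17% of all promoters were, although several lay just below the threshold. Among dopamine receptors, Drd4, an inhibitory receptor, had 2.29, 0.97 and 0.91 in Dnmt1-KO, Eed-KO and WT cells, and Drd5, a stimulatory one, had 1.80, 1.03 and 0.66. Drd3 had -0.11, 0.00 and -0.03. Among muscarinic receptors, Chrm3, which drives gland secretion and smooth muscle contraction, had 1.74, 1.20 and 0.94, and Chrm2, the receptor of the heart, had -0.22, -0.04 and -0.04. Of 6 metabotropic glutamate receptor promoters, 3 were bound in Dnmt1-KO, 0 in Eed-KO and 0 in WT cells. Of all promoters 46%, 5.77% and 5.17% were. Grm3, a presynaptic and glial inhibitory receptor, was highest in WT cells with 0.77, 0.89 and 0.96, and Grm8 was lowest with 0.00, 0.04 and -0.01, in a window centred 8497 bp from the start.

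The glutamate-gated channels were similar in this respect. Gria2, the AMPA subunit that makes the channel impermeable to calcium, had -0.03 in Dnmt1-KO, 1.02 in Eed-KO and 0.90 in WT cells. Gria3 had 1.24, 0.63 and 0.62, and Gria1 had 0.49, 0.01 and 0.04. The kainate subunit gene Grik1 had 1.69, 1.12 and 0.96, Grik2 had 0.91, 0.50 and 0.56, and Grik5 had 0.90, 0.07 and 0.12. Of the NMDA subunits, Grin2a had 2.29, 1.20 and 0.90, Grin1, the obligatory subunit, had 2.15, 0.51 and 0.62, and Grin2d had 1.33, 0.12 and 0.02. The windows of Grik5, Grin2d and Grm6 contain probes that the annotation also assigns to the neighbours Zfp574, Kdelr1 and Zfp879.

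Nicotinic receptor promoters had the lowest family median in WT cells, 0.07 over 11 promoters, with 0.95 in Dnmt1-KO and 0.19 in Eed-KO cells. Chrna5 and Chrna3 lie beside each other on chromosome 9 and encode subunits of the receptors of autonomic ganglia. Chrna5 had 1.56, 1.05 and 0.89 in Dnmt1-KO, Eed-KO and WT cells, and Chrna3 had 1.18, 0.86 and 0.83. Chrnb4, the third gene of that cluster, had 0.82, 0.19 and -0.12. The neighbours Chrnb3 and Chrna6 on chromosome 8 had -0.18 and -0.04 in WT cells. Over all families, 6 of 34 G protein-coupled receptor promoters (17.6%) and 3 of 39 channel subunit promoters (7.69%) were bound in WT cells, where 5.17% of all promoters were. Of the 6, 4 were adrenergic. The 2 groups also differed in CpG content, with medians of 3.04 and 2.12 CpGs per 100 bases, and a difference between receptor kinds was not tested.

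**Figure D2:**
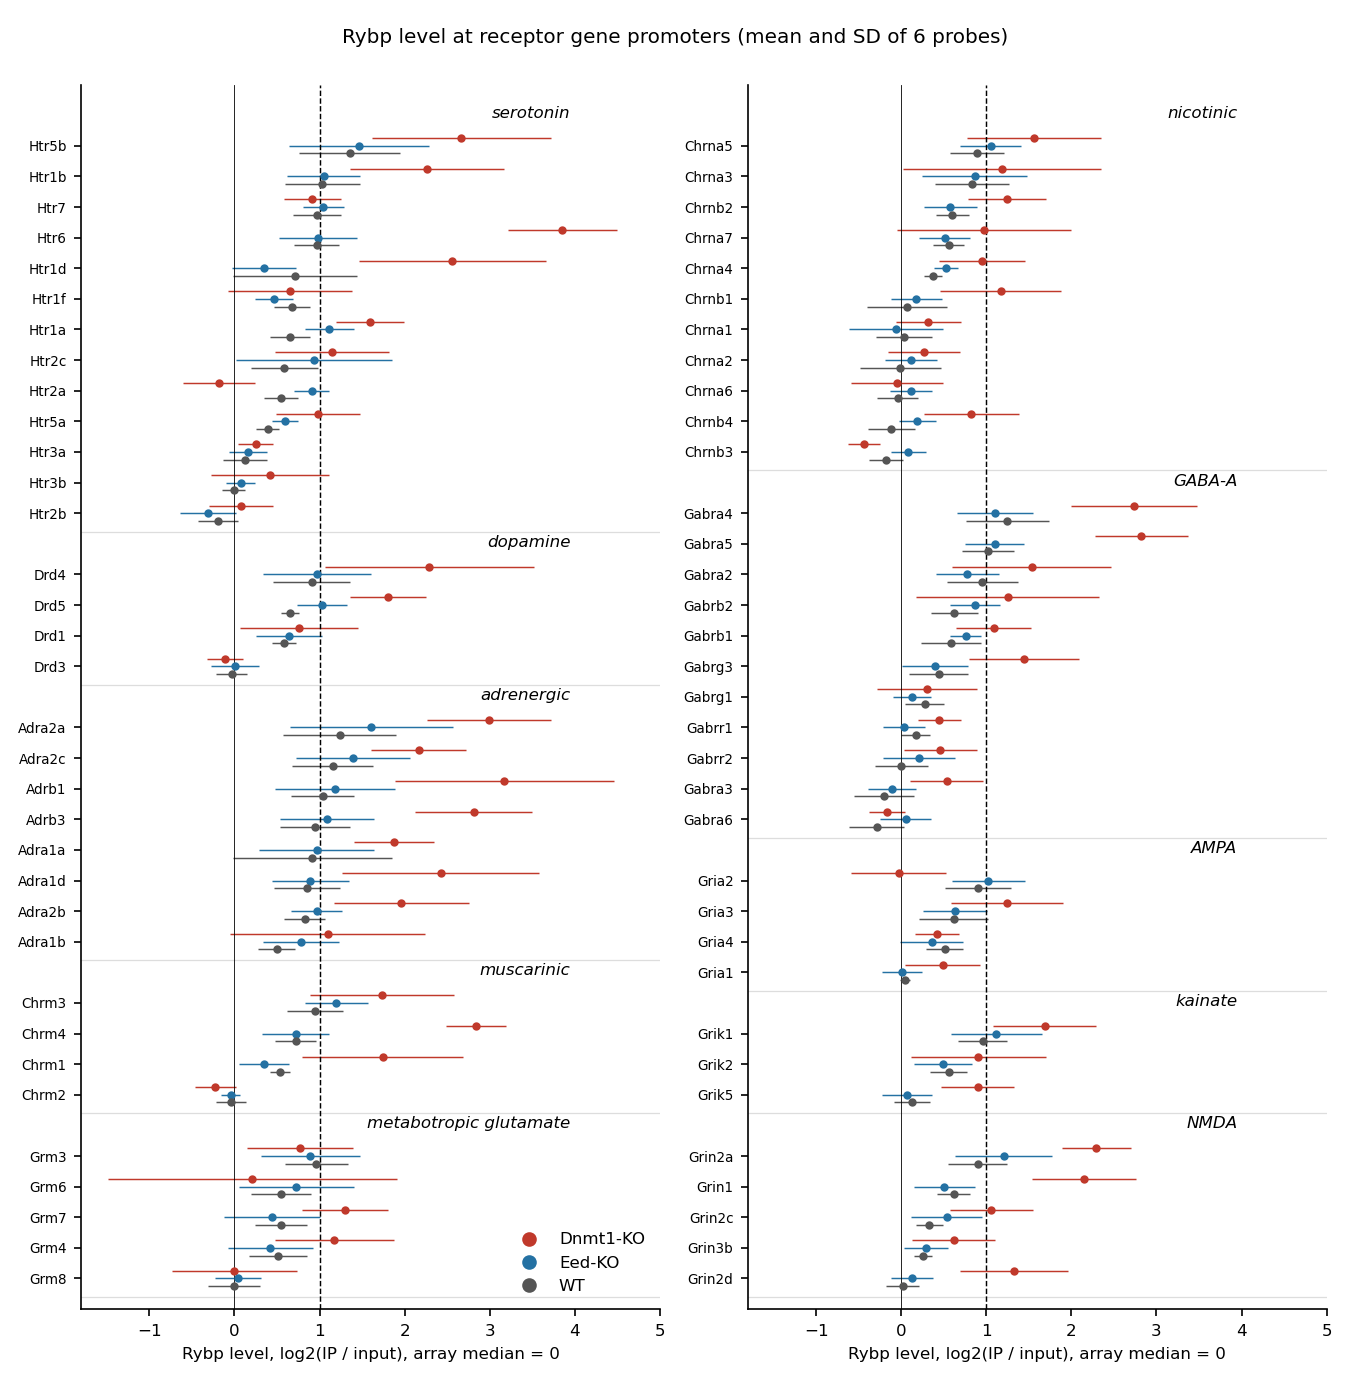
Rybp level (x axis, log2 of immunoprecipitated over input signal, array median at 0) at 68 receptor promoters, grouped by family and ordered by WT level (y axis). Points are means and bars SDs of the 6 probes of 1 array, red for Dnmt1-KO, blue for Eed-KO and grey for WT; the dashed line marks the bound level of 1, which 7 of the WT points shown reach.

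Levels in Eed-KO cells stayed close to those in WT cells. Across the 73 promoters the Eed-KO and WT levels had a Pearson r of 0.931, given as a description, since promoters of an array share its hybridisation. The median difference, Eed-KO minus WT, was 0.06 at receptor promoters and -0.04 over all promoters, and 50 of 73 were above 0, where 40.4% of all promoters were. With arrays at 1 spread, 40 were above 0 (35.4% of all promoters), and 42 in windows chosen anew (36.4% of all promoters). No receptor promoter differed by 1 or more, or by 0.5 or more, in either direction. With arrays at 1 spread Htr1d differed by -0.55, and with runs of 4 probes Htr2c differed by 0.62. At the smaller size 4.33% of all promoters bound in Eed-KO or WT cells were higher and 2.03% lower. At the larger size the shares were 0.0884% and 0%.

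The largest positive difference was at Htr1a, the inhibitory autoreceptor on serotonergic cell bodies. Its levels were 1.11 ± 0.29 in Eed-KO and 0.66 ± 0.24 in WT cells (SD, 6 probes), a difference of 0.46 ± 0.10 (SE), and all 6 probes were higher. Htr1d, an inhibitory receptor, had the largest negative difference, with 0.35 ± 0.38 in Eed-KO and 0.71 ± 0.73 in WT cells, a difference of -0.36 ± 0.17, and all 6 probes were lower. Its probe 1221 bp downstream read 0.88 in Eed-KO and 2.02 in WT cells, and the Htr1d input signal was 0.56 log2 units higher on the Eed-KO array. The windows of Htr1a and Htr1d were centred 1432 and 1565 bp downstream. In the 6 probes nearest the start the differences were 0.0025 at Htr1a and 0.07 at Htr1d, so neither extreme was seen there. In all, 4 promoters had all 6 probes higher in Eed-KO cells (3.71% of all promoters) and 2 had all 6 lower (8.11% of all promoters). The other 3 higher ones were Grin2a, with a difference of 0.31, Chrnb3 with 0.26 and Htr5a with 0.20. Among promoters bound in Eed-KO or WT cells, Drd5 and Adra2a differed by 0.37 each, Chrm3 by 0.25 and Adra2c by 0.24. At the low end of these, Gabra4 differed by -0.14, Htr1b by 0.01, Htr7 by 0.07, Gabra5 by 0.08 and Htr5b by 0.11.

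In Eed-KO cells 9 promoters reached the bound level that were below it in WT cells, namely Gria2, Grin2a, Adrb3, Drd5, Grik1, Chrm3, Chrna5, Htr7 and Htr1a, where 1.81% of all promoters did. Their Eed-KO levels ran from 1.02 to 1.20 and their WT levels from 0.66 to 0.97, so each of these calls is a step of less than 0.5 over the threshold. The input signal moved with some values: on the Eed-KO array it was 0.90 log2 units higher than on the WT array at Adra1a, 0.89 at Htr2a and 0.60 at Chrna2, which all lie on chromosome 14. The Eed-KO minus WT differences of these 3 promoters were 0.05, 0.36 and 0.12, and the part of the input in them was not tested.

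Levels in Dnmt1-KO cells were higher than in WT cells at most receptor promoters, as they were over the whole array. The median difference was 0.63 at receptor promoters and 0.61 over all promoters, and 60 of 73 were above 0, where 83.9% of all promoters were. Of 41 receptor promoters bound in Dnmt1-KO or WT cells, 23 were higher by 1 or more, where 53.9% of all such promoters were. None was lower by 1 or more, where 0.0401% of all such promoters were. In 28 receptor windows all 6 probes were higher in Dnmt1-KO cells (43.3% of all promoters), and in 2 all were lower (2.04% of all promoters). With arrays at 1 spread the median difference was 0.03 at receptor promoters and 0.14 over all promoters, and 40 of 73 were above 0 (65.4% of all promoters). Under this scaling 1 was higher by 1 or more (4.51% of all promoters bound in either genotype) and 2 were lower (1.8%). In windows chosen anew on the rescaled values the median was -0.07, 29 were above 0 (57.8% of all promoters), 1 was higher (3.45%) and 3 were lower (2.69%). The Dnmt1-KO arrays, with the widest spread, weigh most in the mean that chose the reported windows, and this favours high Dnmt1-KO values. Windows chosen on the Eed-KO and WT arrays alone, at the deposited spread, gave a median of 0.33. In these, 47 of 73 receptor promoters were above 0 and 15 were higher by 1 or more. The median and shares of all promoters in such windows were not computed. At 1 spread the group median thus lay near 0, with a different sign in the 2 choices of windows. With the GC trend removed as well it was -0.014 in the same windows, and the cause of the sign was not tested.

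Htr6, a stimulatory serotonin receptor found mainly in the brain, had the highest Dnmt1-KO level of the 73 promoters. It was 3.85 ± 0.64 in Dnmt1-KO, 0.99 ± 0.46 in Eed-KO and 0.96 ± 0.27 in WT cells (SD, 6 probes), in a window of 883 bp centred at -110 bp from the start. The 6 Dnmt1-KO probes read 4.41, 3.84, 4.0, 2.72, 3.64 and 4.48 from upstream to downstream, and the WT probes 1.16, 0.77, 0.51, 1.16, 1.02 and 1.18. Every Dnmt1-KO probe was above every WT probe at the deposited spread, which is wider on the Dnmt1-KO array. The difference from WT was 2.89 ± 0.29 (SE), and it was 1.02 with arrays at 1 spread, the only receptor promoter called higher under that scaling. Of the 30 probes of Htr6, 16 were at 1 or more in Dnmt1-KO, 5 in Eed-KO and 6 in WT cells. The cut of 1 is the same for arrays of unlike spread, so these probe counts are not like for like.

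The other large differences from WT were 2.14 ± 0.38 at Adrb1, 2.12 ± 0.11 at Chrm4, 1.86 ± 0.26 at Adrb3, 1.85 ± 0.37 at Htr1d and 1.80 ± 0.13 at Gabra5 (SE, 6 probes). In that order the windows were centred 435, -3668, 1808, 1565 and 930 bp from the start. In the 6 probes nearest the start the differences were 1.60, 0.54, 0.32, 0.19 and 0.73. The Adrb1 window holds 1 saturated probe on the Dnmt1-KO array, and its difference was 2.46 with saturated probes left out. With arrays at 1 spread the same 5 genes had 0.60, 0.75, 0.39, 0.59 and 0.29. Chrm4, an inhibitory muscarinic receptor of the striatum, had 2.84 in Dnmt1-KO, 0.72 in Eed-KO and 0.72 in WT cells, in a window centred at -3668 bp from the start. Of its 40 probes, 24 were at 1 or more in Dnmt1-KO, 3 in Eed-KO and 1 in WT cells, in separate stretches upstream and downstream of the start. These probe counts are also from arrays of unlike spread. Htr1d had 2.56, 0.35 and 0.71 in Dnmt1-KO, Eed-KO and WT cells.

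Other promoters differed less or the other way. Among those bound in Dnmt1-KO or WT cells, Chrna3, Gabrb1, Htr2c and Gabra2 had differences from 0.35 to 0.58. Gria2 and Htr2a, a receptor that couples to phospholipase C, were the 2 promoters with all 6 probes lower. Gria2 differed by -0.93 ± 0.33 (SE) in a window centred 1814 bp downstream, and by -0.18 in the 6 probes nearest the start. Htr2a had -0.18 in Dnmt1-KO and 0.55 in WT cells, a difference of -0.73 ± 0.17, and -0.53 in the 6 probes nearest the start. At 1 spread Gria2 differed by -1.34. Grik2 differed by -0.21 at 1 spread and by -1.36 in a window chosen anew. In the 73 windows, 22 of 438 probes on the Dnmt1-KO arrays had input not well above background and 8 were saturated, against 0 dim input probes on the Eed-KO and WT arrays. The flag for well above background used a multiplier of 13 on the Dnmt1-KO arrays and 2.6 on the others. The counts of dim probes are therefore not like for like. The input signal, centred on each array, differed between the Dnmt1-KO and WT arrays by -2.89 to 3.69 log2 units at the 73 windows. The median input difference was 1.66, and it was 3.55 at Gria2 and 1.82 at Htr6. Across the 73 windows the input difference and the Dnmt1-KO minus WT difference had a Pearson r of 0.314, given as a description. The part of the input in these differences was not tested.

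Upstream probes of the Htr6 window, the window with the highest Dnmt1-KO level, are written here as printed on the array with CpG in capitals. The 2 with the highest Dnmt1-KO values among those upstream of the start lie at -488 and -261 bp. Their coordinates in the scanner annotation, for which no genome build is stated, are chr4:138347331-138347375 and chr4:138347104-138347149. They read 4.41 and 4.0 in Dnmt1-KO, 1.14 and 0.17 in Eed-KO and 1.16 and 0.51 in WT cells. Each of them holds 1 CpG.
Htr6 at -488: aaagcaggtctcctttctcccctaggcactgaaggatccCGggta
Htr6 at -261: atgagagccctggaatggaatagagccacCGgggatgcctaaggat

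**Figure D3:**
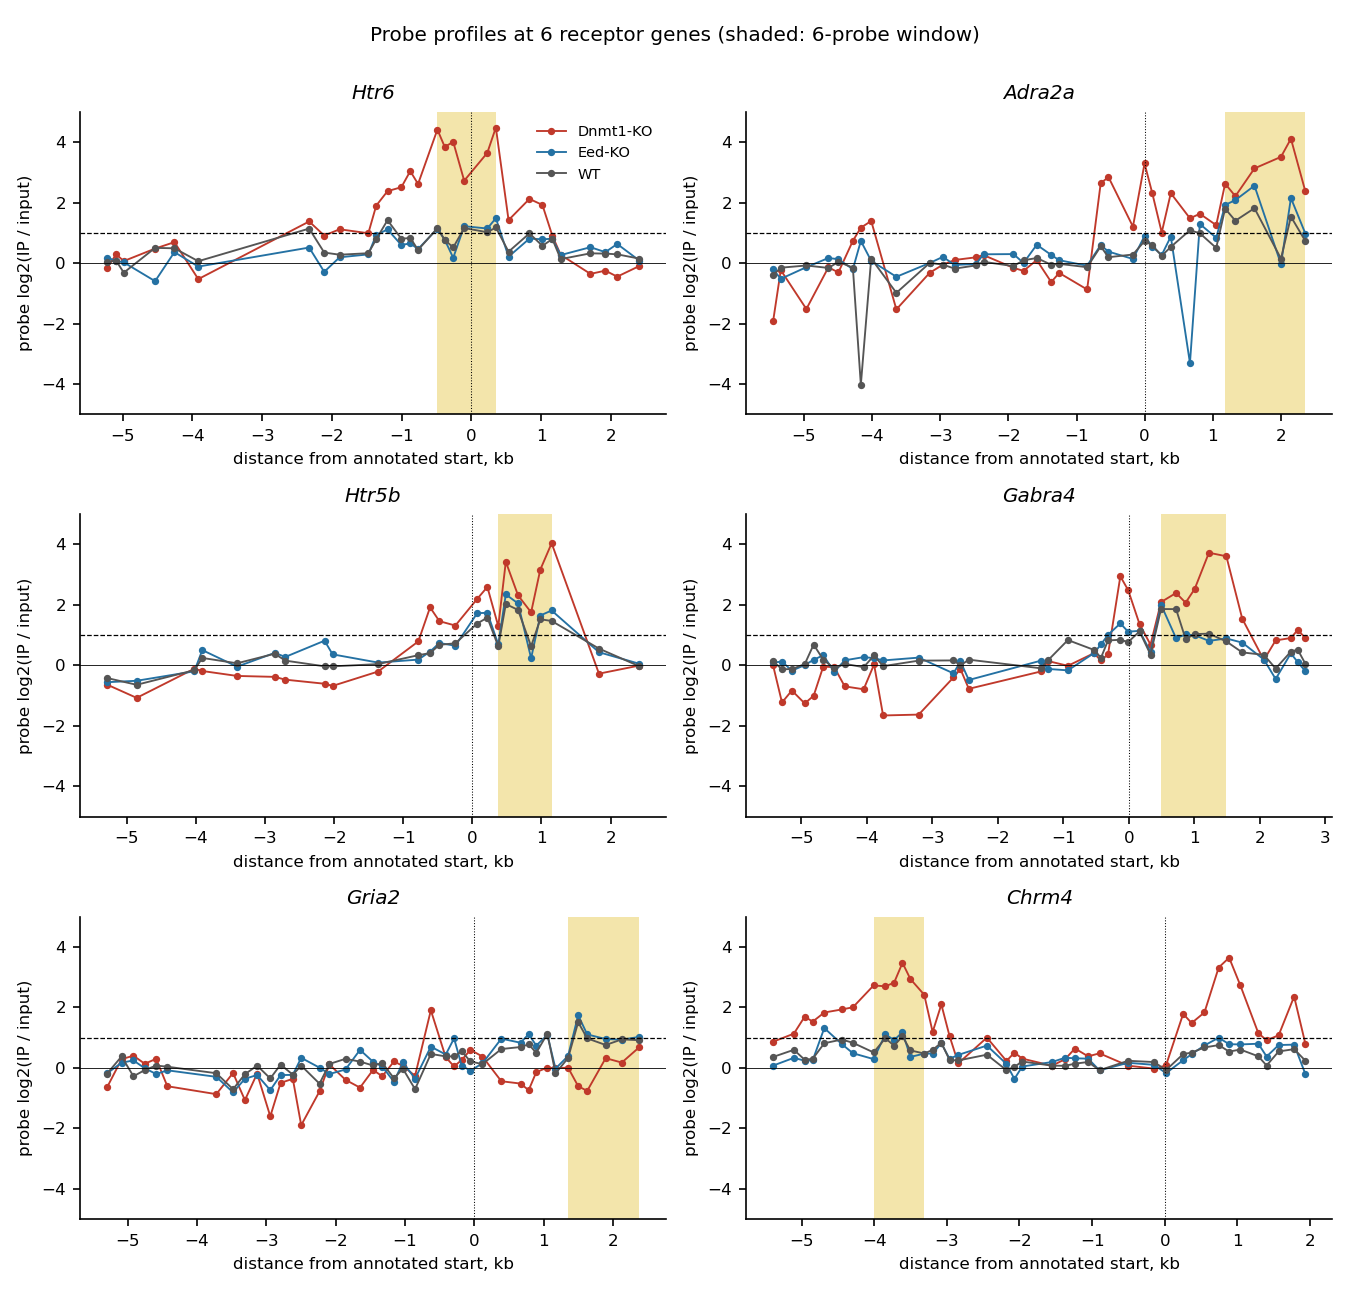
Probe values (y axis, log2 of immunoprecipitated over input signal) against distance from the annotated start (x axis, kb) at Htr6, Adra2a, Htr5b, Gabra4, Gria2 and Chrm4, in Dnmt1-KO (red), Eed-KO (blue) and WT cells (grey), 1 array each. The shaded band is the 6-probe window and the dashed line the bound level of 1; the Eed-KO and WT lines run close together apart from single probes such as those at -4163 and 664 bp of Adra2a, and the Dnmt1-KO line lies far above them at Htr6 and below them in the Gria2 window.

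**Figure D4:**
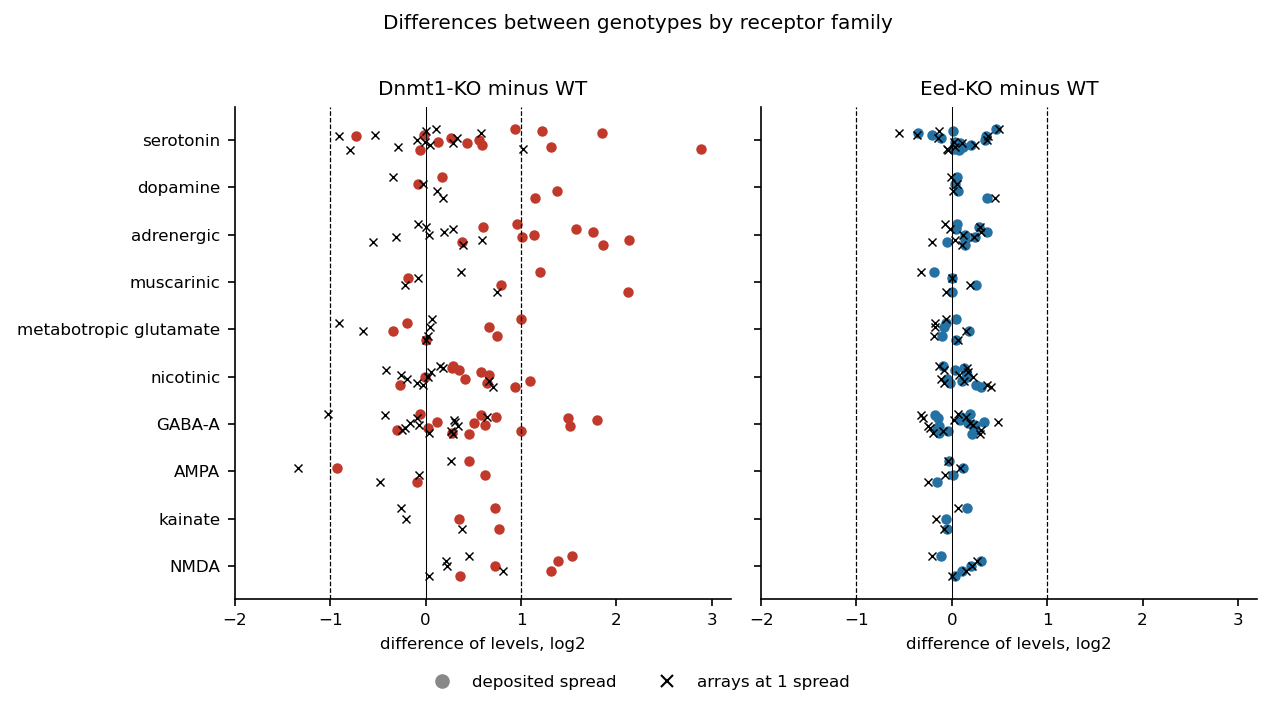
Difference of levels (x axis, log2) for Dnmt1-KO minus WT and Eed-KO minus WT at each receptor promoter, by family (y axis). Circles are values at the deposited spread and crosses values with arrays at 1 spread, in the same windows; dashed lines mark differences of 1 and -1, and the Dnmt1-KO crosses are centred near 0, with a median of 0.03.

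The Rybp level of receptor promoters varied with CpG content, which the choice of genes did not use. The windows held a median of 2.54 CpGs per 100 bases of probe sequence, against 2.5 over all promoters. Among the 19 receptor windows with over 4 CpGs per 100 bases, 17 were bound in Dnmt1-KO, 9 in Eed-KO and 6 in WT cells. Over all promoters of that class the shares bound were 77.1%, 7.83% and 7.21%, and for the receptors they were 89.5%, 47.4% and 31.6%. Of the 12 receptor windows under 1 CpG per 100 bases, 2 were bound in Dnmt1-KO and 0 in Eed-KO and WT cells, where 9.32%, 0.525% and 0.42% of all promoters of that class were. Across the 73 windows the Pearson r of CpG content with the level was 0.655 in Dnmt1-KO, 0.498 in Eed-KO and 0.545 in WT cells (Spearman rho 0.601, 0.522 and 0.564). Over all promoters the Pearson r was 0.564, 0.323 and 0.447 (Spearman rho 0.631, 0.44 and 0.57), so the relation is not particular to receptor genes. These coefficients are descriptions, since probe base composition also moves array signal. With the trend on probe GC removed the Pearson r of the receptor windows was 0.569, 0.470 and 0.453. Exceptions were Gabra4, bound in WT cells at 1.28 CpGs per 100 bases, and Grin1 and Grm7, with 6.78 and 6.64 and WT levels of 0.62 and 0.54.

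**Figure D5:**
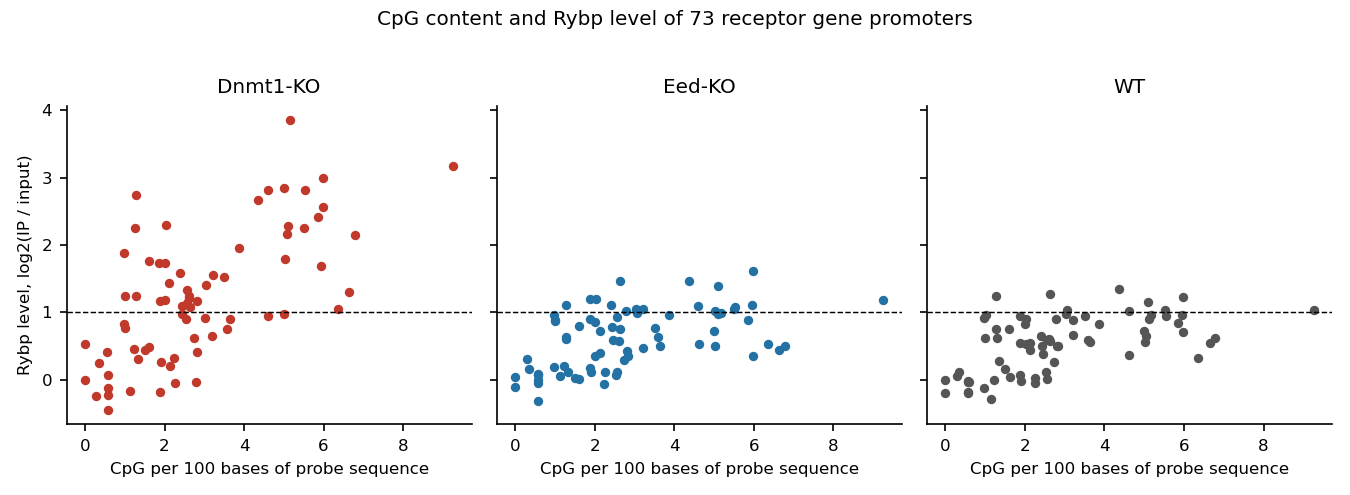
Rybp level (y axis, log2 of immunoprecipitated over input signal) against CpG per 100 bases of probe sequence (x axis) for 73 receptor windows in Dnmt1-KO, Eed-KO and WT cells, 1 point per promoter and 1 array each. The dashed line marks the bound level of 1, which 2 windows in Dnmt1-KO cells and none in Eed-KO or WT cells reach below 1 CpG per 100 bases.

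In the RefSeq promoters the median number of CpGs in 300 bases was 12 over the 66 receptor starts and 7 over all 32851 starts in the table. Letters of sites for partners of Rybp complexes were looked for on both strands. CACGTG, the E-box of the Max and Mga factors, was in 4 of the 66 receptor starts (Adra2a, Adra2c, Chrna7 and Grin1) and in 7.15% of all starts. GCGGGAA, an E2F site, was in 1 (Adra2b) and in 4.60% of all. CCATNTT, the core bound by YY1, was in 3 (Gabra5, Gabrb1 and Htr6) and in 16.1% of all.

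Other genes of transmitter signalling were read in the same way. For comparison, 46%, 5.77% and 5.17% of all promoters were bound in Dnmt1-KO, Eed-KO and WT cells. Of 17 receptor genes outside the symbol rule, such as glycine and histamine receptors, 8 were bound in Dnmt1-KO, 1 in Eed-KO and 1 in WT cells. The WT-bound one was Grid1, a delta glutamate receptor, with 2.52, 1.28 and 1.14, and Gabrq, a GABA-A subunit, was next with 2.27, 0.84 and 0.94. Of 14 genes of transmitter synthesis and breakdown, 5, 2 and 2 were bound in Dnmt1-KO, Eed-KO and WT cells. Those bound in WT cells were Gad2 and Gad1, which make GABA, with WT levels of 1.15 and 1.11. Of 19 transporter genes, 11, 5 and 2 were bound, with Slc6a4, the serotonin transporter, at 1.28 and Slc18a3, the vesicular acetylcholine transporter, at 1.02 in WT cells. Of 23 genes of scaffolds and auxiliary subunits, 12, 2 and 1 were bound, and in WT cells Grip1 had 1.03 and Neto1 0.97. The shares bound were 52.2%, 8.70% and 4.35% for the scaffolds and 47.1%, 5.88% and 5.88% for the receptors outside the rule. Both lists were thus near the shares of all promoters. Median WT levels were 0.35 for the receptors outside the rule, 0.25 for synthesis, 0.66 for transport and 0.44 for scaffolds.

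Marker genes of cell types were read for comparison, which gives Rybp levels and not expression. Of all promoters, 46%, 5.77% and 5.17% were bound in Dnmt1-KO, Eed-KO and WT cells. Among 13 neuronal markers 10, 2 and 2 were bound in Dnmt1-KO, Eed-KO and WT cells, with Nefl at 1.19 and Nefm at 1.15 in WT cells. Among 12 feeder fibroblast markers 7, 5 and 5 were bound, with Vim at 1.27 and Twist2 at 1.19 in WT cells. Among 9 ES cell markers 4, 1 and 0 were bound, with Utf1 at 0.91 and Klf4 at 0.85 in WT cells. Rybp itself had 1.65 in Dnmt1-KO, 0.47 in Eed-KO and 0.66 in WT cells. How many feeder cells each culture held is not shown by these values.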

How the data were processed

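Rybp ChIP-chip was read from 6 arrays of 2 designs, 1 array of each design for Dnmt1-KO, Eed-KO and WT ES cells. Per the labels, immunoprecipitated DNA was labelled with Cy5 and input with Cy3, after amplification with T7 RNA polymerase. Per the file headers, the deposited processed signals are background-subtracted, dye-normalised intensities from Agilent Feature Extraction, version 9.5.3.1 with scanner model G2505B for WT and Eed-KO, and 10.1.1.1 with G2505C for Dnmt1-KO. All samples carry version 9.5.3.1 in the submitters' processing notes. A table of log10 ratios, deposited by the authors, equals the scanner's log10 ratio of each array plus an offset, to 0.001 for 99.0% or more of the probes. Its column medians on array 1 were -0.121, -0.0317 and -0.025 for Dnmt1-KO, Eed-KO and WT, and on array 2 -0.114, -0.0316 and -0.027. The rule behind the offsets is unknown.

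From the deposited intensities log2 of red over green was taken and centred on each array's median of non-control probes, and 333 of 474380 probes with an outlier flag on any array of their design were left out. Gene assignments and distances came from the scanner annotation of the Dnmt1-KO files, in coordinates of an unstated genome build. Symbols were updated through RefSeq accessions (GRCm38.p6, names only), which matched 16289 of 16908 symbols and all 75 receptor genes, and renamed 1 of them. The limit of 10 kb between probe and start was added after seeing the data, since without it the windows of Grik5 and Grin2d lay 61702 and 32936 bp from their starts. Differences of 1 or more, and of 0.5 or more for Eed-KO, were counted among promoters bound in either genotype. With 1 array per promoter and genotype these are rules of size without p-values, and so few arrays limit the precision.

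Named genes are every receptor gene bound in WT cells, the 2 highest and the lowest WT level of each family, and the 6 highest and 6 lowest differences of each knockout among bound promoters. They also include clustered GABA-A and nicotinic subunit genes, the 2 highest members of each list, and the genes Rybp, Eed and Dnmt1. Drd3, Htr5a, Htr2a, Adra1a, Chrna2, Htr3a, Htr3b, Grm6, Grm7, Grik2 and the genes with a motif were added by their values or annotation. A few receptor genes enter the group counts and medians but are not reported by name here. The receptor genes, the lists and the alternatives were chosen with earlier results of these data known. On simulated data, the recovery of known differences was tested in windows nearest the start. The choice of the window with the highest mean was not tested. The check of the scaling only asked for equal spreads, which the scaling itself ensures. Python 3.11.15, pandas 2.3.3, numpy 2.4.6, statsmodels 0.14.6 and, for normexp, limma 3.58.1 in R 4.3.3 were used.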

Additional observations from a re-analysis of the deposited data

How the results depend on the processing

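Of 229 recomputed group values, 186 kept their direction and stayed within a tolerance. It was 1.5 times for counts, the median probe SE for differences (0.103 for Eed-KO, 0.232 for Dnmt1-KO), the median probe SD of 0.29 for WT levels and 0.1 for coefficients. With arrays at 1 spread in the same windows, 25 receptor promoters were bound in Dnmt1-KO, 32 in Eed-KO and 28 in WT cells, and Dnmt1-KO minus WT had a median of 0.028, with 40 above 0, 1 higher and 2 lower by 1 or more. In windows chosen anew on the rescaled values, 23 receptor promoters were bound in Dnmt1-KO, 36 in Eed-KO and 31 in WT cells, the median WT level was 0.88, and Dnmt1-KO minus WT had a median of -0.069, with 29 above 0, 1 higher and 3 lower by 1 or more. The rescaling itself raises WT and Eed-KO values and lowers Dnmt1-KO values. With the GC trend removed as well and windows chosen anew, the bound counts were 17, 29 and 25, the Dnmt1-KO median -0.094, 24 were above 0, 0 higher and 1 lower. In the same windows they were 19, 25 and 24, the median -0.014, 33 above 0, 0 higher and 1 lower, and the CpG coefficients 0.484 in Dnmt1-KO and 0.414 in WT cells. Removing the GC trend alone left 5 bound in WT cells and 14 higher in Dnmt1-KO cells. The 6 probes nearest the start gave 27, 6 and 3 bound and 11 higher in Dnmt1-KO cells. Windows chosen on Eed-KO and WT gave a Dnmt1-KO median of 0.33 and 15 higher. Runs of 4 probes gave 19 bound in WT cells, 1 lower in Dnmt1-KO cells and a CpG coefficient of 0.376 with the Eed-KO level, and normexp one of 0.685 with the WT level. Bound levels of 1.5-fold and 3-fold gave 36 and 0 bound in WT cells. Shares of all promoters were computed only for the reported setting and for arrays at 1 spread without the GC correction. The counts under the other alternatives therefore describe the receptor promoters without a comparison. The Eed-KO counts at 1 or more were 0 under every alternative run. At 0.5 or more they were 0 as reported, and 1 was lower with arrays at 1 spread, in either choice of windows, and 1 higher with runs of 4 probes.

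The Dnmt1-KO minus WT difference changed sign for some named genes called higher. At 1 spread, in the same windows as in those chosen anew, it was -0.31 at Adra2c, -0.089 at Gabra4, -0.00019 at Htr1b and -0.29 at Htr5b. Only in windows chosen anew was it -0.020 at Drd4 and -0.76 at Gabrg3. With the GC trend removed as well it was -0.0059 at Adra2b, -0.42 at Adra2c, -0.045 at Gabra4, -0.049 at Htr1b and -0.32 at Htr5b in either choice of windows, and -0.089 at Drd4 and -0.11 at Grin1 only in those chosen anew. In windows chosen on Eed-KO and WT it was -0.95 at Gabrg3 and -0.043 at Grin2d, and in the probes nearest the start -0.061 at Grin2d. The cause of these sign changes was not tested. The alternatives without a distance limit and with rescaled values in the same windows were added after seeing the data, and leaving out the distance limit moved no count by over 1.5 times. No paired analysis was possible because each promoter has 1 array per genotype. Precision is limited by that single array and, on the Dnmt1-KO arrays, by saturated probes and probes flagged as dim under another multiplier.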
